A study of Mus musculus with 24 samples.

Results

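The comparison of mouse pancreatic tumours from the LIGEL group with those from the PBS group takes in 12 of the 24 RNA sequencing libraries of the series, 6 LIGEL and 6 PBS, chosen by the group name in the sample titles. PBS, buffered saline, is the control, all tumours were collected on day 24, and the remaining 12 libraries belong to the GEM and IGEL groups. The series title names losartan, a drug that blocks the type 1 angiotensin II receptor, given before a nanocarrier that combines chemotherapy with immunotherapy, so the comparison asks how the tumour transcriptome differed between LIGEL and control animals. The labels expand none of the group names and give neither strain, age, sex, tumour model, dose nor schedule, so no agent is assigned to LIGEL here. Nor do they state that each library came from its own animal, and p-values then measure only the spread between these libraries, part of which may be technical.

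Dividing cells switch on their genes in waves. Genes for copying DNA are transcribed around the start of S phase under E2F factors, and genes for the spindle, the chromosome attachment sites and the separation of daughter cells are transcribed in G2 and M phase, when the DREAM complex has left their promoters and B-MYB and FOXM1 have bound. Many of the second wave carry a short element near the start of transcription called the cell cycle genes homology region, or CHR, with CCAAT boxes upstream of it. In pancreatic tumours the level of such genes in bulk RNA reflects malignant cells together with dividing fibroblasts, endothelium and immune cells.

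Total counts ran from 30.7 to 40.5 M (counts in units of 1e6) in LIGEL and from 27.1 to 35.8 M in PBS. Sample titles say muscle where the tissue label says pancreatic tumour. Skeletal muscle genes took at most 0.00295% of counts in these 12 libraries. In LIGEL, Vim, an intermediate filament of mesenchymal cells and many tumour lines, lay at 3137 to 4026 CPM (counts per 1e6 counts). Krt19, a keratin of duct cells, lay there at 63.8 to 115 CPM. Krt7 and Epcam lay below Krt19 in LIGEL, at 0.723 to 10.8 CPM and 2.09 to 21.5 CPM. PBS replicate 5 stood apart from the other libraries. Transcripts of the enzyme-secreting acinar cells of normal pancreas took 45.4% of its counts, against at most 6.83% in the other PBS libraries and 0.0156 to 8.80% in LIGEL, where the median was 0.896%. Gene values are given without PBS replicate 5 unless stated otherwise, a choice made with earlier results of these data known. No gene passed with 6 PBS libraries, and list medians are given both ways. A smaller split lies within LIGEL, where replicates 1 and 2 have count columns that share the stem A3. Both held fewer acinar transcripts (0.107% and 0.0156%) than the other LIGEL libraries, the labels do not say whether they came from 1 tumour, and no PBS library has a column named A1 to A3.

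Genes of mitosis made up the largest group of listed genes among those called, and many of their promoters share short sequence elements. A promoter window here runs from 250 bases before to 50 bases after an annotated RefSeq start (GRCm38.p6), and both strands were searched for the CHR letters TTTGAA, for CCAAT and for the E2F letters TTTGGCGC, TTTCCCGC and TTTCGCGC. The 4 windows printed belong to the genes with the smallest p-values among the mitotic genes called lower in LIGEL whose window holds both CHR and CCAAT. Capitals mark the CHR and each CCAAT box on either strand, so that a box on the opposite strand reads ATTGG, and the sequences run 5′ to 3′ along the gene's own strand. They are Hmmr (chr11:40733388-40733687, minus strand), which makes a spindle-binding hyaluronan receptor; Racgap1 (chr15:99651607-99651906, minus strand), part of the complex that organises the central spindle; Prc1 (chr7:80294201-80294500, plus strand), which bundles central spindle microtubules; and Cenpa (chr5:30666636-30666935, plus strand), the histone variant that marks centromeres.
Hmmr: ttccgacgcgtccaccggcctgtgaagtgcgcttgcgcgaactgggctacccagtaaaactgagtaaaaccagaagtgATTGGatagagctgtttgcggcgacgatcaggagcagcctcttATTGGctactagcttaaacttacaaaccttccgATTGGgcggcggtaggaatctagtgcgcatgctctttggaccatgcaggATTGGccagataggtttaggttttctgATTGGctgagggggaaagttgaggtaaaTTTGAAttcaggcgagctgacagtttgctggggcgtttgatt
Racgap1: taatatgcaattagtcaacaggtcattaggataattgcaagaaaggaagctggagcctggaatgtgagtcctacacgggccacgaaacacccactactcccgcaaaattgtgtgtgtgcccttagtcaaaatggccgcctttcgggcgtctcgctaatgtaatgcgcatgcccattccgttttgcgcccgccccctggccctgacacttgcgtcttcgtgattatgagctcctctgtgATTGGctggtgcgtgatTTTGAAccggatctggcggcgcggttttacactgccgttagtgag
Prc1: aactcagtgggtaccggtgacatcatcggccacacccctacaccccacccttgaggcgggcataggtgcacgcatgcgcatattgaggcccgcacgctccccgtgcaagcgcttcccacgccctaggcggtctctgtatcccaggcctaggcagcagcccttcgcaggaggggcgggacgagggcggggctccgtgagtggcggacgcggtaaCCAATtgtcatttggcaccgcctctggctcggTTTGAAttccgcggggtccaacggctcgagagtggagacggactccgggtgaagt
Cenpa: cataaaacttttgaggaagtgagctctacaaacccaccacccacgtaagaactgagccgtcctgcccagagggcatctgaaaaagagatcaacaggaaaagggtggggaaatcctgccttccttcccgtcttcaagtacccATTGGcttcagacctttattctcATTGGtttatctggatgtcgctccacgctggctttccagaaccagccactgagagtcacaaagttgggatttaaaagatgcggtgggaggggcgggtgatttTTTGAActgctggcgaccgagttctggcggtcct
Counted from the annotated start, the CHR begins at position 8 in Hmmr, 5 in Racgap1, -5 in Prc1 and 16 in Cenpa. Each of the 4 has at least 1 CCAAT box, and Hmmr has 5.

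Over the mitotic genes called lower, 51 of 60 were matched to 55 promoter windows, of which 40 (72.7%) held the CHR letters and 34 (61.8%) held both CHR and CCAAT. Over the 70 windows of all mitotic list members, called or not, the same shares were 68.6% and 54.3%, so they were already high in the lists as chosen. Over all 32851 windows of 27025 genes they were 17.9% and 6.95%. The genes called lower outside the mitotic lists had the CHR in 32 of 88 windows (36.4%), and the genes called higher in 1 of 29 (3.45%). Windows of the replication genes held the CHR in 4 of 25 (16%), close to the share of all windows. They held an E2F motif in 10 of 25 (40.0%), against 1.84% of all windows and 4 of the 55 (7.27%) of the mitotic genes called lower. CCAAT alone was common in every set, from 37.4% of all windows to 76.4% of those of the mitotic genes called lower. These are letter matches in fixed windows, which are neither measured binding nor a cause of the expression values.

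**Figure D1:**
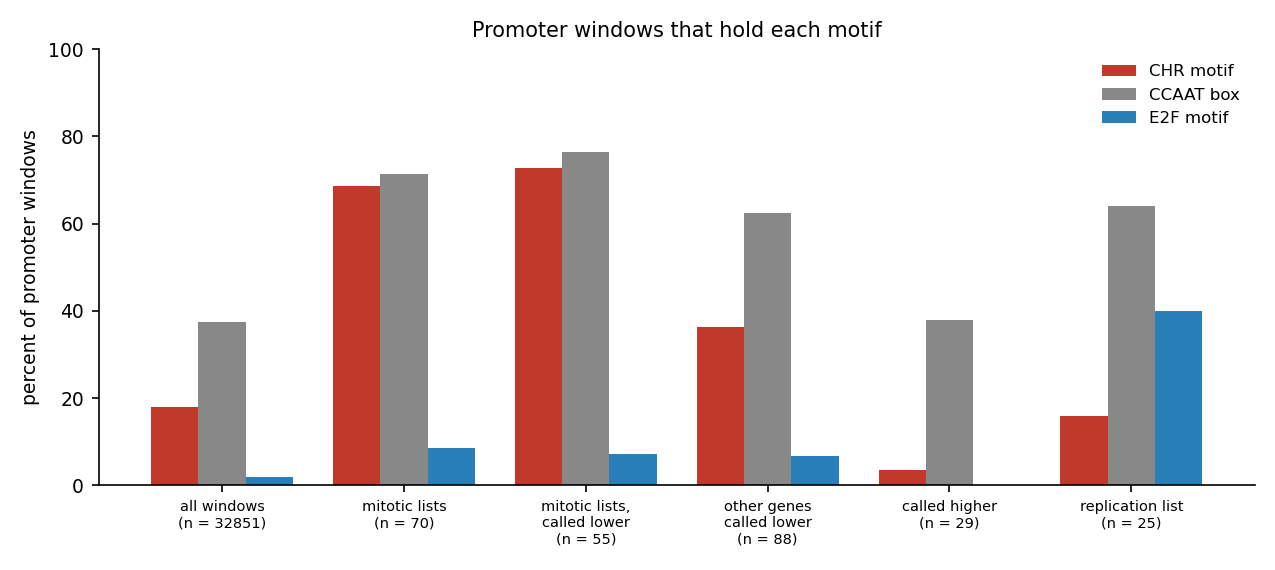
Bars give the percent of promoter windows (250 bases before to 50 after a RefSeq start) that hold the CHR motif, a CCAAT box or an E2F motif on either strand, with the number of windows under each set. The CHR is in 68.6% of the windows of the mitotic lists, 72.7% of those of mitotic genes called lower and 17.9% of all windows. E2F motifs are in 40.0% of the replication windows.

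With PBS replicate 5 left out, 173 of the 19525 genes tested differed between LIGEL and PBS, 27 higher and 146 lower (edgeR quasi-likelihood test, adjusted p under 0.05). This is 0.138% of genes tested called higher and 0.748% called lower. Of the 146 lower genes, 60 (41.1%) belong to 3 lists of mitotic genes with 76 members in all, so 78.9% of those members were called lower. With the A3 columns of LIGEL replicates 1 and 2 summed into 1 library, 59 genes were called, 27 of them mitotic. The gene lists were drawn up with earlier results of these data known, and a proliferation list was among those results. All 76 members lay below 0 in the log2 fold change of LIGEL over PBS, as 51.9% of all genes tested did, and 75 of the 76 had an unadjusted p under 0.05, against 9.97% of all genes tested on the lower side. The joint median of the 76 log2 fold changes was -0.96, against -0.01 for all genes tested. In bulk tissue, fewer dividing cells and less of these transcripts in each dividing cell cannot be told apart.

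With 6 PBS libraries in the fit no gene passed out of 19253 tested (0%), and the smallest adjusted p was 0.0831. In that fit 1209 genes were higher (6.28%) and 2736 lower (14.2%) at an unadjusted p under 0.05, while DESeq2 called 1229 genes and limma voom with sample quality weights 734. All 76 mitotic members were still below 0, their median log2 fold change was -0.75, and 53 of the 76 had an unadjusted p under 0.05, against 14.2% of all genes on the lower side. None of the 76 separated the groups there, and PBS replicate 5 had the lowest mean level of each mitotic list among the 12 libraries. With all libraries kept, voom called 75 of the 76 lower, whereas DESeq2 called 2, with 62 at an unadjusted p under 0.05. Why the tools differed was not tested. Of the 173 genes called without PBS replicate 5, 172 were tested with it and all 172 had the same sign there, and 135 had an unadjusted p under 0.05.

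**Figure D2:**
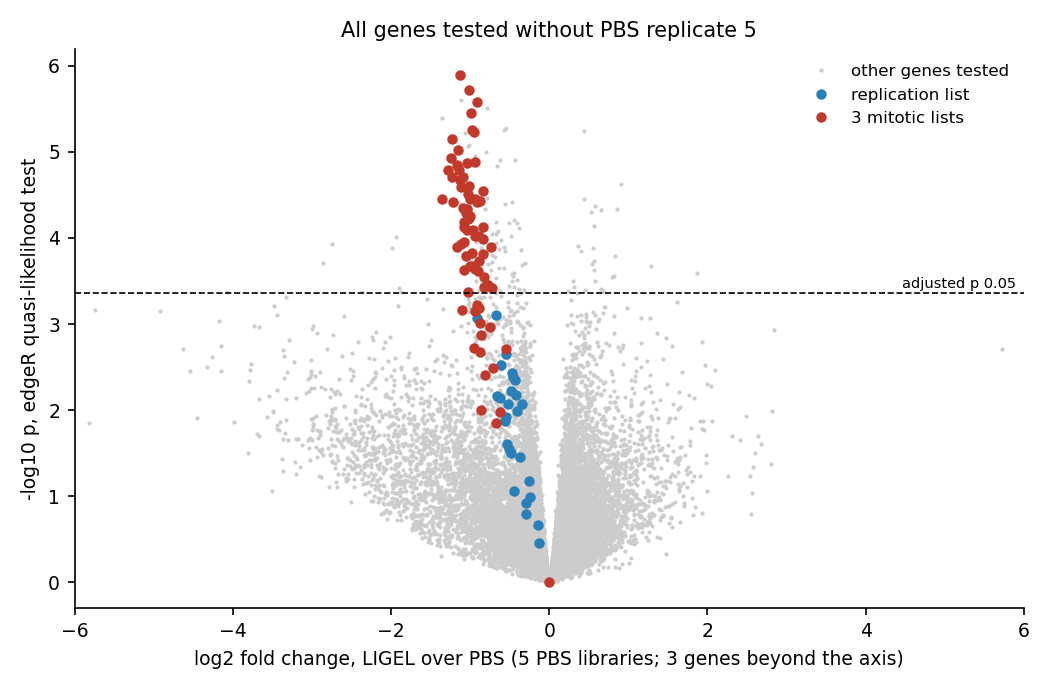
Each point is a gene tested in the fit without PBS replicate 5, with its log2 fold change of LIGEL over PBS on the x axis and -log10 of its p on the y axis; the dashed line marks an adjusted p of 0.05. Of the 76 mitotic genes (red) 60 lie above the line on the lower side, and none of the 27 replication genes (blue) does.

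Entry into mitosis and its checkpoint was the first of the 3 lists, and 19 of its 23 members were called lower, with a median log2 fold change of -1.01 (-0.78 with 6 PBS libraries). Ccnb1 (ENSMUSG00000041431, chromosome 13:100778650-100786570 of mm10) encodes cyclin B1, the partner that activates Cdk1 at entry. Its level was 103, 226, 144, 190 and 129 CPM in PBS replicates 1, 2, 3, 4 and 6, and 12.2 CPM in PBS replicate 5. In LIGEL it ran from 53.5 through a median of 73.2 to 93.2 CPM. Every LIGEL library thus lay below the 5 PBS libraries and above PBS replicate 5, and the log2 fold change without that library was -1.13 (SE 0.21, adjusted p = 0.0123). Ccnb2, the second B cyclin, fell by 1.22 on the log2 scale (adjusted p = 0.0147) and Espl1, the separase that cleaves cohesin at anaphase, by 1.08 (adjusted p = 0.0118).

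Cdc20 (chromosome 4:118432901-118437352), which directs the anaphase-promoting complex to its targets, was at 109, 284, 216, 269 and 156 CPM in the same 5 PBS libraries. In LIGEL it ran from 64.9 to 126 CPM with a median of 82.1 CPM. LIGEL replicate 6 overlapped with PBS replicate 1 here, and the log2 fold change was -1.23 (SE 0.23, adjusted p = 0.0118). Pttg1, securin, which holds separase in check, was the exception in the list, with a log2 fold change of -0.001 (adjusted p = 0.996). The other members that did not pass, Melk, Mybl2 and Ccnf, had log2 fold changes of -0.87, -0.87 and -0.72. Mybl2 encodes the activator B-MYB (adjusted p = 0.105).

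Motor proteins, spindle parts and cytokinesis factors formed the second list, with 26 of 31 members called lower and a median log2 fold change of -1.02 (-0.79 with 6 PBS libraries). Aspm (chromosome 1:139454772-139494091), which focuses spindle poles, was at 101, 172, 114, 144 and 68.7 CPM in the 5 PBS libraries. In LIGEL its lowest, median and highest levels were 35.6, 48.4 and 61.5 CPM. The groups did not overlap once PBS replicate 5, at 14.3 CPM, was left out, and the log2 fold change was -1.27 (SE 0.23, adjusted p = 0.0107). Kif20a, a kinesin of the central spindle, fell by 1.23 (adjusted p = 0.00929) and Ckap2, a microtubule stabiliser, by 1.36 (SE 0.26, adjusted p = 0.0147). The 3 genes of this list whose promoters are printed fell by 1.13 (Hmmr), 1.01 (Racgap1) and 0.91 (Prc1) on the log2 scale, each with an adjusted p = 0.00837, and none of them overlapped between LIGEL and the 5 PBS libraries. Kifc1 and its near-identical copy Kifc5b can share reads, so the log2 fold change of -0.99 for Kifc5b is uncertain.

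The third list, of kinetochore, condensin and chromosome structure genes, had 15 of 22 members called lower and a median log2 fold change of -0.90 (-0.67 with 6 PBS libraries). Cenpa (chromosome 5:30666777-30674830) was at 94.1, 158, 125, 154 and 129.96 CPM in the 5 PBS libraries. LIGEL ran from 55.9 to 79.7 CPM with a median of 68.1 CPM, and PBS replicate 5 was at 23.6 CPM. All 6 LIGEL libraries lay below the 5 PBS libraries, with a log2 fold change of -0.97 (SE 0.16, adjusted p = 0.00837). Mki67 (chromosome 7:135689784-135716361), which coats mitotic chromosomes and is the usual marker of dividing cells, was at 265 ± 51.3 CPM in LIGEL (SD, n = 6) and 495 ± 119 CPM in PBS (SD, n = 5), and fell by 0.90 (SE 0.21, adjusted p = 0.0357). Cenpf, a kinetochore protein of late G2, fell by 1.24 (adjusted p = 0.0102), while Spc24 of the NDC80 complex had a log2 fold change of -0.95 (adjusted p = 0.0989).

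Across the 3 lists 63 of 76 members had every LIGEL library below the 5 PBS libraries, against 1.33% of all genes tested. LIGEL replicates 1 and 2 were the lowest LIGEL libraries in each list. When the libraries with A1 to A3 columns were removed from all groups, no gene was called; the median of the 76 members was then -0.79 and 74 of them kept an unadjusted p under 0.05. The count of mitotic genes called also rested on single libraries, with 6 called without PBS replicate 2, the PBS library with the highest mean level in each mitotic list, 23 without LIGEL replicate 1, 28 without LIGEL replicate 2, 37 without PBS replicate 4, and 70 without PBS replicate 1. The median stayed between -0.85 and -1.07 in those 5 settings.

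**Figure D3:**
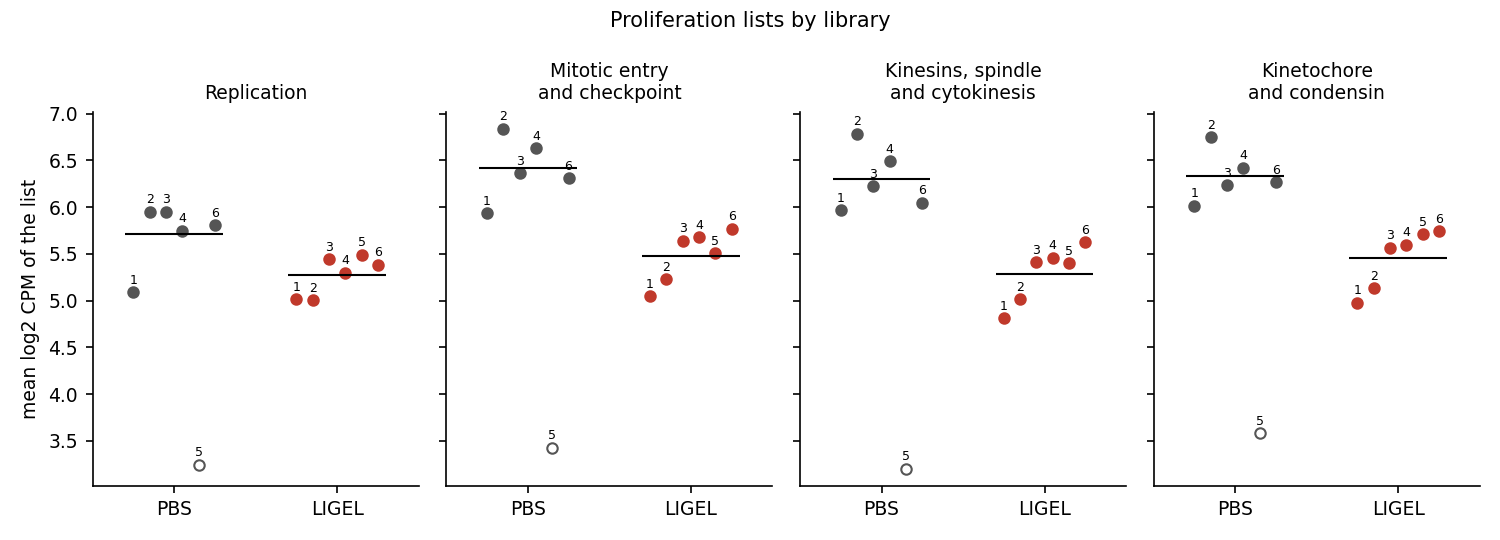
Points give the mean log2 CPM of each proliferation list in each library, numbered by replicate; the bar is the group mean, taken without PBS replicate 5 (open circle). In the 3 mitotic lists all 6 LIGEL libraries lie below the 5 other PBS libraries and above PBS replicate 5, and in the replication list PBS replicate 1 lies within the LIGEL range.

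The replication genes, by contrast, gave no call. All 27 members of that list were below 0 without PBS replicate 5, 20 had an unadjusted p under 0.05, and their median log2 fold change was -0.47 (-0.26 with 6 PBS libraries). Mcm10, which helps to start the replication fork, was at 19.3 to 37.0 CPM in LIGEL and at 31.5 to 72.5 CPM in the 5 PBS libraries, a log2 fold change of -0.91 (adjusted p = 0.0698). The clamp loader subunit Rfc4 and the primase subunit Prim1 had log2 fold changes of -0.41 and -0.55. PBS replicate 1 had the lowest level of this list among the 5 PBS libraries (mean log2 CPM 5.09), inside the LIGEL range of 5.01 to 5.49. Whether the replication and mitotic lists differed in their response was not tested.

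Of the genes for repair by homologous recombination and for replication stress, 2 of 22 were called lower, Chek2 and Brca1, and the list median was -0.60 (-0.41 with 6 PBS libraries). All 22 lay below 0 with an unadjusted p under 0.05, against 9.97% of all genes tested on the lower side. With 6 PBS libraries all 22 were still below 0, and 4 had an unadjusted p under 0.05, against 14.2% of all genes. Chek2 encodes a checkpoint kinase and was at 9.22 ± 1.72 CPM in LIGEL and 15.3 ± 2.51 CPM in the 5 PBS libraries, a fall of 0.73 (SE 0.15, adjusted p = 0.0215). Brca1, which loads the recombinase onto broken ends, fell by 0.77 (SE 0.18, adjusted p = 0.0488). For both genes the groups overlapped. Fancd2, of the crosslink repair pathway, had a log2 fold change of -0.96 (adjusted p = 0.0673), and Atm, the kinase that senses double-strand breaks, of -0.25 (adjusted p = 0.318).

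Targets of p53 had a median log2 fold change of -0.53 (-0.56 with 6 PBS libraries) over 22 members, 19 of them below 0, and 1 was called, Aen. This gene (ENSMUSG00000030609, chromosome 7:78895854-78911209) encodes a nuclease induced by p53 that takes part in apoptosis. Its levels were 57.1, 49.99, 55.3, 42.1, 55.9 and 40.8 CPM in PBS replicates 1 to 6, and 24.7 to 38.9 CPM with a median of 31.7 CPM in LIGEL. It separated all 6 LIGEL from all 6 PBS libraries, as 0.369% of the genes tested did on the lower side, with a log2 fold change of -0.63 (SE 0.14, adjusted p = 0.0259) without PBS replicate 5 and -0.67 (adjusted p = 0.0986) with it. Sesn2, a stress-induced inhibitor of growth signalling, also separated all 12 libraries, at 17.8 to 25.2 CPM in LIGEL and 28.5 to 60.6 CPM in PBS, without passing (log2 fold change -0.86, adjusted p = 0.0538). Trp53inp1, a p53-induced nuclear protein, was at 399 CPM in PBS replicate 1, against 33.4 to 68.0 CPM in PBS replicates 2, 3, 4 and 6 and 18.003 to 42.6 CPM in LIGEL (log2 fold change -2.08, adjusted p = 0.0941). The cell cycle inhibitor Cdkn1a had a log2 fold change of -0.30 and the p53 antagonist Mdm2 of -0.16, with adjusted p of 0.594 and 0.596.

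No gene of a list on uptake, activation and targets of gemcitabine, a nucleoside drug widely used against pancreatic cancer, was called among 15 tested, and the median log2 fold change was -0.13 (-0.03 with 6 PBS libraries). Rrm1, the large subunit of ribonucleotide reductase and a target of the drug, was at 127 ± 24.4 CPM in LIGEL and 209 ± 32.9 CPM in the 5 PBS libraries. Those groups did not overlap, but the gene did not pass (log2 fold change -0.71, adjusted p = 0.0597). Dck, the kinase that activates the drug, and Cda, the deaminase that inactivates it, had log2 fold changes of -0.31 and 0.13. Slc28a3, a nucleoside transporter that was highest in PBS replicate 5 at 41.6 CPM, had a log2 fold change of -1.51 without that library (adjusted p = 0.461).

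None of the 27 genes called higher belonged to any of the 41 lists. Perm1 (ENSMUSG00000078486, chromosome 4:156215868-156221307), a regulator of mitochondrial and oxidative genes known from muscle, had the smallest adjusted p with 6 PBS libraries. It was at 6.83, 11.3, 13.5, 13.9, 11.4 and 14.8 CPM in PBS replicates 1 to 6 and at 19.1 to 23.4 CPM in LIGEL, with a median of 22.2 CPM. All LIGEL libraries lay above all PBS libraries, as 0.649% of genes tested did, and the log2 fold change was 0.86 (SE 0.17, adjusted p = 0.0151) without PBS replicate 5 and 0.87 (adjusted p = 0.0831) with it. Skeletal muscle genes themselves summed to 18.6 to 27.7 CPM in LIGEL and 14.1 to 25.6 CPM in the 5 PBS libraries. Plekhn1 (chromosome 4:156221456-156234857), which lies next to Perm1, was also called higher, with a log2 fold change of 0.54 (adjusted p = 0.0326). Its means were 125 CPM in LIGEL and 86.2 CPM in the 5 PBS libraries. Whether reads of this neighbour were counted for Perm1 was not tested.

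Gpr132 (chromosome 12:112850873-112868228), a proton-sensing receptor of macrophages and lymphocytes, was at 8.28, 9.80, 11.8, 10.8, 4.53 and 11.4 CPM in PBS replicates 1 to 6. In LIGEL it ran from 12.996 to 27.0 CPM with a median of 18.5 CPM, with replicates 1 and 2 highest. The groups did not overlap, and Gpr132 rose by 0.91 on the log2 scale (SE 0.17, adjusted p = 0.0127). Prdm1, which encodes Blimp-1, a repressor that drives the terminal differentiation of B and T cells, separated all 12 libraries as well, at 8.89 to 13.6 CPM in LIGEL and 4.78 to 8.60 CPM in PBS (log2 fold change 0.82, SE 0.19, adjusted p = 0.0390).

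Cabp4, a calcium-binding protein known from photoreceptors, had the largest rise, from 0.432 ± 0.132 CPM in the 5 PBS libraries to 1.59 ± 0.473 CPM in LIGEL (log2 fold change 1.87, SE 0.43, adjusted p = 0.0373), at a level near 1 CPM; PBS replicate 5 was at 1.08 CPM, within the LIGEL range. Acss2, which makes acetyl-CoA from acetate, rose by 0.66 (SE 0.13, adjusted p = 0.0152) and separated all 12 libraries, and so did Kif3c, a kinesin of axonal and microtubule transport, which rose by 0.65 (SE 0.16, adjusted p = 0.0490). Ifi205, of the interferon-induced DNA-binding family whose near-identical copies can share reads, rose by 0.68 (SE 0.16, adjusted p = 0.0492). The phospholipase Plcd1, the Polycomb-associated protein Phf1 and the Ras inhibitor Rasa4 rose by 0.58, 0.58 and 0.57. For Plcd1 and Phf1 the call rests on leaving out PBS replicate 5, which at 27.8 and 104 CPM lay above every LIGEL library. Over the 27 higher genes, 24 did not overlap between LIGEL and the 5 PBS libraries, against 0.866% of all genes tested. Because these genes were picked by their p in the same libraries, that count is no separate evidence.

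The largest falls were in genes of low level, and for 3 of them PBS replicate 1 held most of the PBS counts. Ano3, of a family of membrane ion channels and scramblases, had 144 of its 182 PBS counts in that library and 0 counts in all 6 LIGEL libraries. Against a floor of 3 counts over the LIGEL group, its pooled level of 1.01 CPM in the 5 PBS libraries was at least 74.9-fold higher, and its adjusted p was 0.0499. Akr1cl, an aldo-keto reductase, had 201 of 240 PBS counts in PBS replicate 1 and 1 count in LIGEL (adjusted p = 0.0390). Vnn1, a pantetheinase, was at 10.3 CPM in PBS replicate 1, 0.328 to 0.857 CPM in PBS replicates 2, 3, 4 and 6 and 0 to 0.269 CPM in LIGEL (log2 fold change -4.08, SE 0.98, adjusted p = 0.0492).

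Edn1 encodes endothelin 1, a peptide that constricts vessels, and fell by 2.37 (SE 0.57, adjusted p = 0.0492), from 6.21, 1.85, 0.820, 0.670 and 3.91 CPM in the 5 PBS libraries to 0.174 to 1.27 CPM in LIGEL. Cox6b2, a testis form of a respiratory chain subunit, fell by 2.86 (SE 0.64, adjusted p = 0.0321). Psrc1, a spindle-associated protein outside the 3 lists that is also known as a p53 target, fell by 1.94 (SE 0.41, adjusted p = 0.0223), from 16.5 to 50.3 CPM in the 5 PBS libraries to 3.33 to 12.1 CPM in LIGEL with no overlap. Troap, a spindle-associated protein also outside the lists, fell by 1.36 (SE 0.22, adjusted p = 0.00837).

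**Figure D4:**
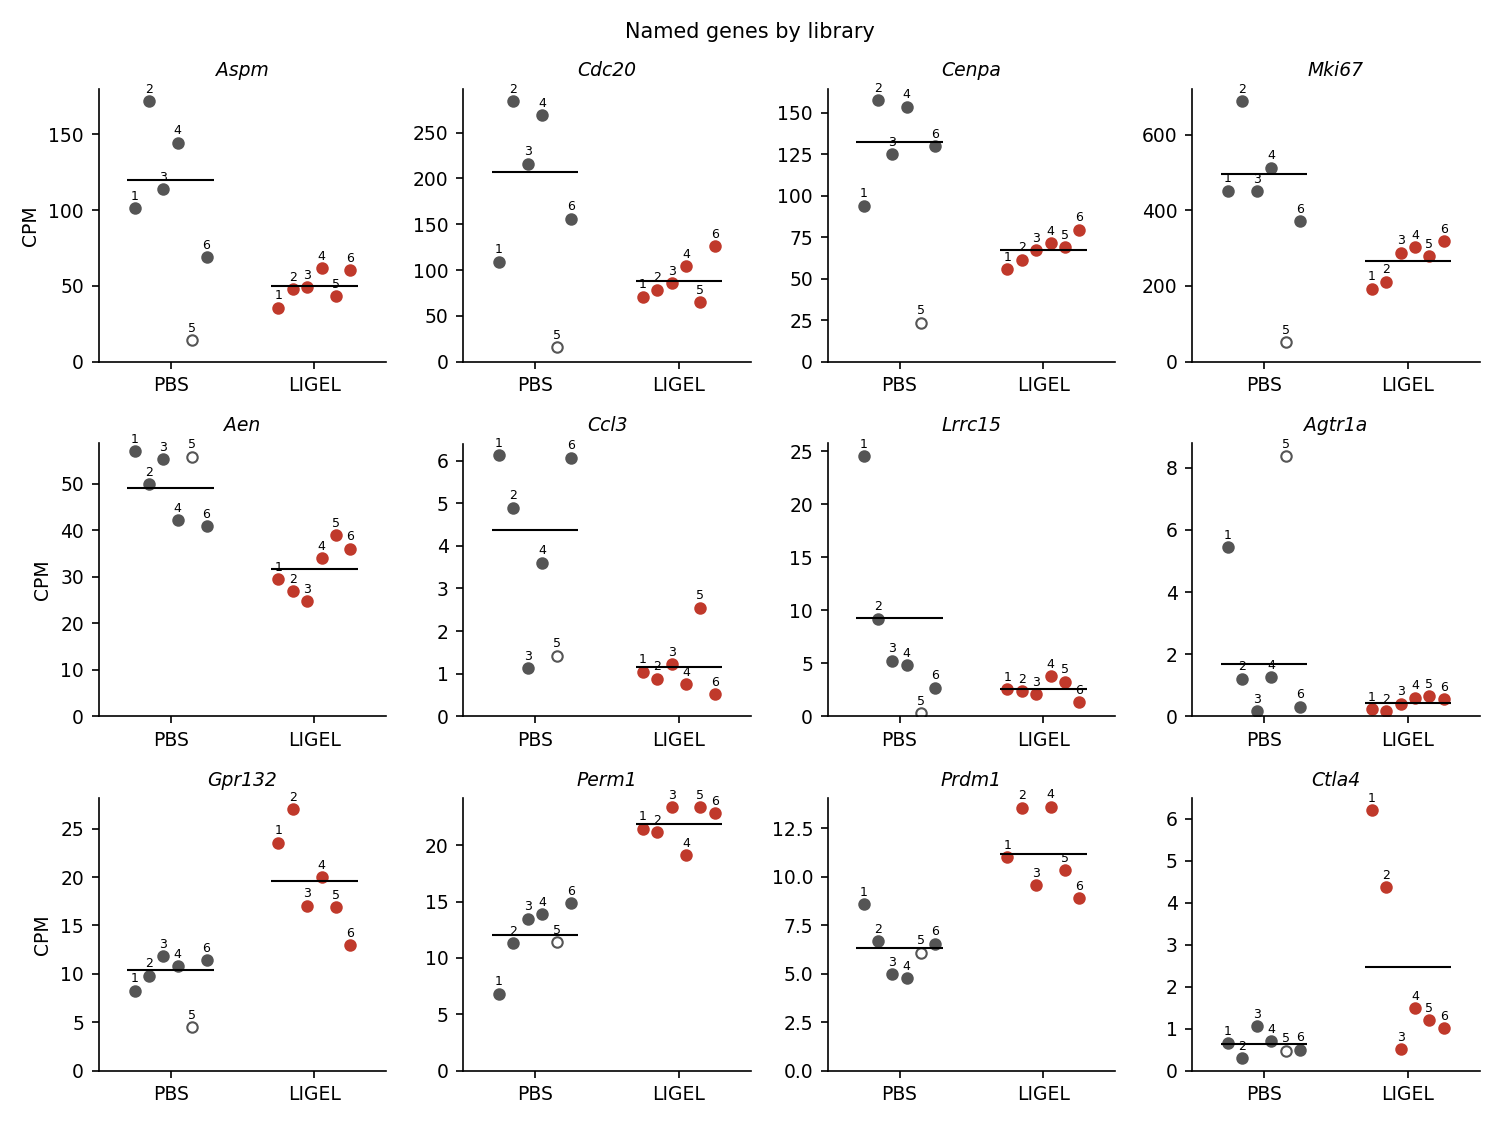
Points are CPM in each library, numbered by replicate, for 12 named genes, with bars at group means taken without PBS replicate 5 (open circle). Aen, Gpr132, Perm1 and Prdm1 separate all 6 LIGEL from all 6 PBS libraries, the mitotic genes in the top row do so only without PBS replicate 5 (Cdc20 with 1 overlap), and Ctla4 is high in LIGEL replicates 1 and 2.

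Lymphocyte lists lay above 0 as groups, and no member of them was called. The median log2 fold change without PBS replicate 5 was 0.64 for the T cell receptor complex and its signalling (19 of 20 members above 0), 0.52 for cytotoxic effectors (15 of 16), 0.50 for checkpoint and costimulatory genes (15 of 18) and 0.83 for regulatory T cell genes (6 of 7). With 6 PBS libraries these medians were 0.68, 0.44, 0.56 and 0.77. At an unadjusted p under 0.05, 5 of the 20 T cell receptor genes and 5 of the 18 checkpoint genes were on the higher side, against 5.39% of all genes tested, of which 48.1% lay above 0. Ctla4, an inhibitory receptor of T cells, was at 6.19 and 4.37 CPM in LIGEL replicates 1 and 2, 0.518 to 1.48 CPM in LIGEL replicates 3 to 6, and 0.295 to 1.07 CPM in the 6 PBS libraries. Its log2 fold change was 1.93 (adjusted p = 0.0941), and of the 4 other LIGEL libraries replicates 4 and 5 lay above every PBS library while replicates 3 and 6 lay within the PBS range. Il10 had the same 2 libraries highest, at 4.78 and 3.805 CPM, and a log2 fold change of 0.96 (adjusted p = 0.302).

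Cd8a, which marks cytotoxic T cells, was at 8.92 to 26.1 CPM in LIGEL with a median of 15.9 CPM and at 5.96 to 36.3 CPM in PBS, where replicate 1 was the highest of the 12 libraries (log2 fold change 0.24, adjusted p = 0.831). The killing protein Gzmb ran from 6.01 to 26.9 CPM in LIGEL and from 2.11 to 15.7 CPM in PBS (0.87, adjusted p = 0.333), and Prf1, which opens pores in target cells, had a log2 fold change of -0.02. Among ligands of inhibitory receptors, Cd274 (PD-L1) was at 23.1 to 45.5 CPM in LIGEL and 14.7 to 28.6 CPM in PBS (0.53, adjusted p = 0.175), and Vsir (VISTA) at 72.9 to 115 CPM and 45.7 to 78.0 CPM (0.48, adjusted p = 0.163). Foxp3, Pdcd1 and Cd5 had log2 fold changes of 0.87, 0.66 and 1.29 with adjusted p of 0.383, 0.486 and 0.197. B and plasma cell genes had a median of 0.35 (0.15 with 6 PBS libraries) and no call in 17, and the antibody gene Igha had 1.32 (adjusted p = 0.260). Markers of organised lymphoid tissue had a median of -0.02 (-0.27 with 6 PBS libraries), and none of 6 tested was called.

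Class II antigen presentation was the list with the highest median, 0.96 (0.79 with 6 PBS libraries), and all 11 members were above 0 with none called. Ciita, the master switch of class II genes, was at 10.3, 9.64, 2.82, 6.26 and 11.5 CPM in the 5 PBS libraries and at 13.8 to 27.9 CPM in LIGEL. The groups separated only without PBS replicate 5, which was at 17.7 CPM, and the log2 fold change was 1.28 (SE 0.50, adjusted p = 0.227). H2-DMb1 and H2-DMa, which load peptide onto class II molecules, had 0.90 and 0.61. The class I list had a median of 0.20 (0.29 with 6 PBS libraries) and no call in 18, with H2-K1 and H2-D1, whose reads can be shared with related class I genes, at 0.29 each and the transporter Tap2 at 0.28. Interferon gamma induced genes had a median of 0.29 (0.23 with 6 PBS libraries), all 21 above 0 and none called. Irf8, a factor of dendritic cells and macrophages, separated all 12 libraries at 117 to 132 CPM in LIGEL and 32.6 to 113 CPM in PBS, with a log2 fold change of 0.34 (adjusted p = 0.173). Ifng itself was too low to test, with 47 counts in LIGEL and 5 in PBS. Type I interferon genes had a median of 0.12 (0.00 with 6 PBS libraries) and no call in 29, and LIGEL replicates 1 and 2 were the lowest of the 12 libraries in this list (mean log2 CPM 4.68 and 4.75, against 5.08 or more in the others).

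Myeloid lists were mixed. The chemokine list had 1 call in 24, Ccl3, and a median of -0.42 (-0.41 with 6 PBS libraries). Ccl3, which draws in monocytes and lymphocytes, was at 6.13, 4.90, 1.12, 3.604 and 6.07 CPM in the 5 PBS libraries and 0.521 to 2.55 CPM in LIGEL, and fell by 1.90 (SE 0.45, adjusted p = 0.0477) with overlap at PBS replicate 3. Ccl6, of the same class, was at 32.1 to 101 CPM in LIGEL and 102 to 255 CPM in the 5 PBS libraries (-1.34, adjusted p = 0.0627), and Cxcl12, made by stromal cells, had -1.49 (adjusted p = 0.227). Macrophage genes had a median of -0.11 (-0.01 with 6 PBS libraries) and no call in 20, but their members differed. The scavenger receptors Marco and Cd163 had log2 fold changes of -3.33 (adjusted p = 0.0533) and -1.06 (adjusted p = 0.325), and Mertk, which clears dying cells, had 0.31 (adjusted p = 0.244). Marco was at 0 to 1.25 CPM in LIGEL and 1.96 to 9.26 CPM in the 5 PBS libraries. Neutrophil genes had a median of -0.54, dendritic cell genes 0.21 and inflammasome genes 0.16, against -0.44, 0.34 and 0.31 with 6 PBS libraries, without a call, and Il1b had 1.003 (adjusted p = 0.346). Summed over the neutrophil list, however, the median was higher in LIGEL, at 524 CPM against 247 CPM in the 5 PBS libraries. Its member Mmp9 had medians of 503 and 206 CPM.

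The title names losartan, and angiotensin II acts on fibroblasts, but the labels do not say which groups received the drug. Any effect of losartan on the stromal genes was therefore not tested. The 16 fibroblast genes had a median of -0.90 (-0.88 with 6 PBS libraries), 15 were below 0 and 1 was called. Lrrc15, a marker of TGF-beta-driven fibroblasts in tumours, was at 24.5, 9.21, 5.25, 4.83 and 2.69 CPM in the 5 PBS libraries and 0.270 CPM in PBS replicate 5. In LIGEL it ran from 1.32 to 3.77 CPM with a median of 2.42 CPM, overlapping with PBS replicate 6, and it fell by 1.87 (SE 0.45, adjusted p = 0.0495). Dcn, a matrix proteoglycan, had -1.27 (adjusted p = 0.316) and the contractile actin Acta2 -0.64 (adjusted p = 0.528). Collagen chains had a median of -0.68 (-0.50 with 6 PBS libraries) with 16 of 19 below 0 and no call. Col1a1 was at 2677 to 6849 CPM in LIGEL and 2752 to 16950.4 CPM in the 5 PBS libraries (-0.86, adjusted p = 0.330), and Col5a3 lay on the other side with 0.78 (adjusted p = 0.301). PBS replicate 1 had the highest mean level of both lists among the 12 libraries, and summed over each list the 5 PBS libraries reached 2089 CPM of fibroblast and 44292 CPM of collagen transcripts, against medians of 868 and 17779.9 CPM.

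The renin-angiotensin list had a median of -0.06 (-0.15 with 6 PBS libraries) and no call in 13. Agtr1a, the mouse receptor that losartan blocks, was at 5.45, 1.20, 0.164, 1.26, 8.38 and 0.305 CPM in PBS replicates 1 to 6 and at 0.161 to 0.637 CPM in LIGEL. PBS replicates 1 and 5 were highest, replicates 2 and 4 also lay above every LIGEL library, and replicates 3 and 6 lay within the LIGEL range, with log2 fold changes of -2.67 (adjusted p = 0.124) with 6 PBS libraries and -1.95 (adjusted p = 0.187) without replicate 5. Ace, which makes angiotensin II, had 0.00, and Lnpep, an aminopeptidase that binds angiotensin IV, 0.27 (adjusted p = 0.255). TGF-beta genes had a median of 0.04 (0.16 with 6 PBS libraries) and no call in 21, with Tgfb1 at 0.37 and Tgfb2 at -1.43. Matrix assembly and breakdown genes had a median of -0.04, which turned to 0.16 with 6 PBS libraries, and no call in 33. Endothelial genes had -0.27 (-0.59 with 6 PBS libraries) and no call in 16.

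The tumour epithelium list had a median of -1.61 without PBS replicate 5 and -2.18 with it, and none of 20 members was called. Summed over the list, however, the median was 1136 CPM in LIGEL and 1072 CPM in the 5 PBS libraries, which reached 2658 CPM. The typical LIGEL library was thus not lower in the summed level. Krt7, a duct keratin, was at 68.3, 14.2, 3.28, 7.99 and 8.07 CPM in the 5 PBS libraries and 0.723 to 10.8 CPM in LIGEL (-2.49, adjusted p = 0.128), and Epcam, an epithelial adhesion molecule, had -1.98 (adjusted p = 0.211). Krt19 had 0.15 (adjusted p = 0.876). In mean log2 CPM of this list, PBS replicate 1 was the highest of the 5 PBS libraries and LIGEL replicates 1 and 2 the lowest of all 12. Mesenchymal genes had a median of 0.08 (0.27 with 6 PBS libraries) and Vim 0.43 (adjusted p = 0.320). Hypoxia and glycolysis genes had a median of 0.37 (0.50 with 6 PBS libraries), with 22 of 23 above 0 and none called, and Pfkfb4, which drives glycolysis, was at 66.1 and 53.3 CPM in LIGEL replicates 1 and 2, 34.4 to 50.01 CPM in the other LIGEL libraries and 20.97 to 38.4 CPM in the 5 PBS libraries (0.59, adjusted p = 0.216). The unfolded protein response had -0.08 (-0.29 with 6 PBS libraries).

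Of the tissues that a piece of tumour can carry along, acinar, islet, adipocyte, liver and mesothelial genes moved with PBS replicate 5. The median of 31 acinar genes was -3.08 with that library and -0.18 without it, and Cpa1, a digestive protease, ran from 5.09 to 4800 CPM in LIGEL and 177 to 36000 CPM in PBS. Islet genes had medians of -2.94 and -1.66, adipocyte genes -1.15 and -0.12, liver genes -1.50 and -0.97 and mesothelial genes -1.88 and -1.16, and skeletal muscle genes 0.07 and 0.00. Red blood cell genes had -0.61 and -0.80, with their highest level in PBS replicate 6. Summed over that list, the median was 10.5 CPM in LIGEL and 2.08 CPM in the 5 PBS libraries, which reached 99.8 CPM. The typical LIGEL library thus lay above the typical PBS library, against the sign of the fold changes. Of the lists on sample handling, immediate early genes had 0.17 and 0.06 and mitochondrially encoded genes -0.16 and 0.04. No member of these 9 lists was called in either fit. The part of these tissues in the differences described was not tested beyond one model, in which the acinar level entered as a covariate: without PBS replicate 5, 68 of the 76 mitotic genes were then called lower, with a median of -0.91.

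**Figure D5:**
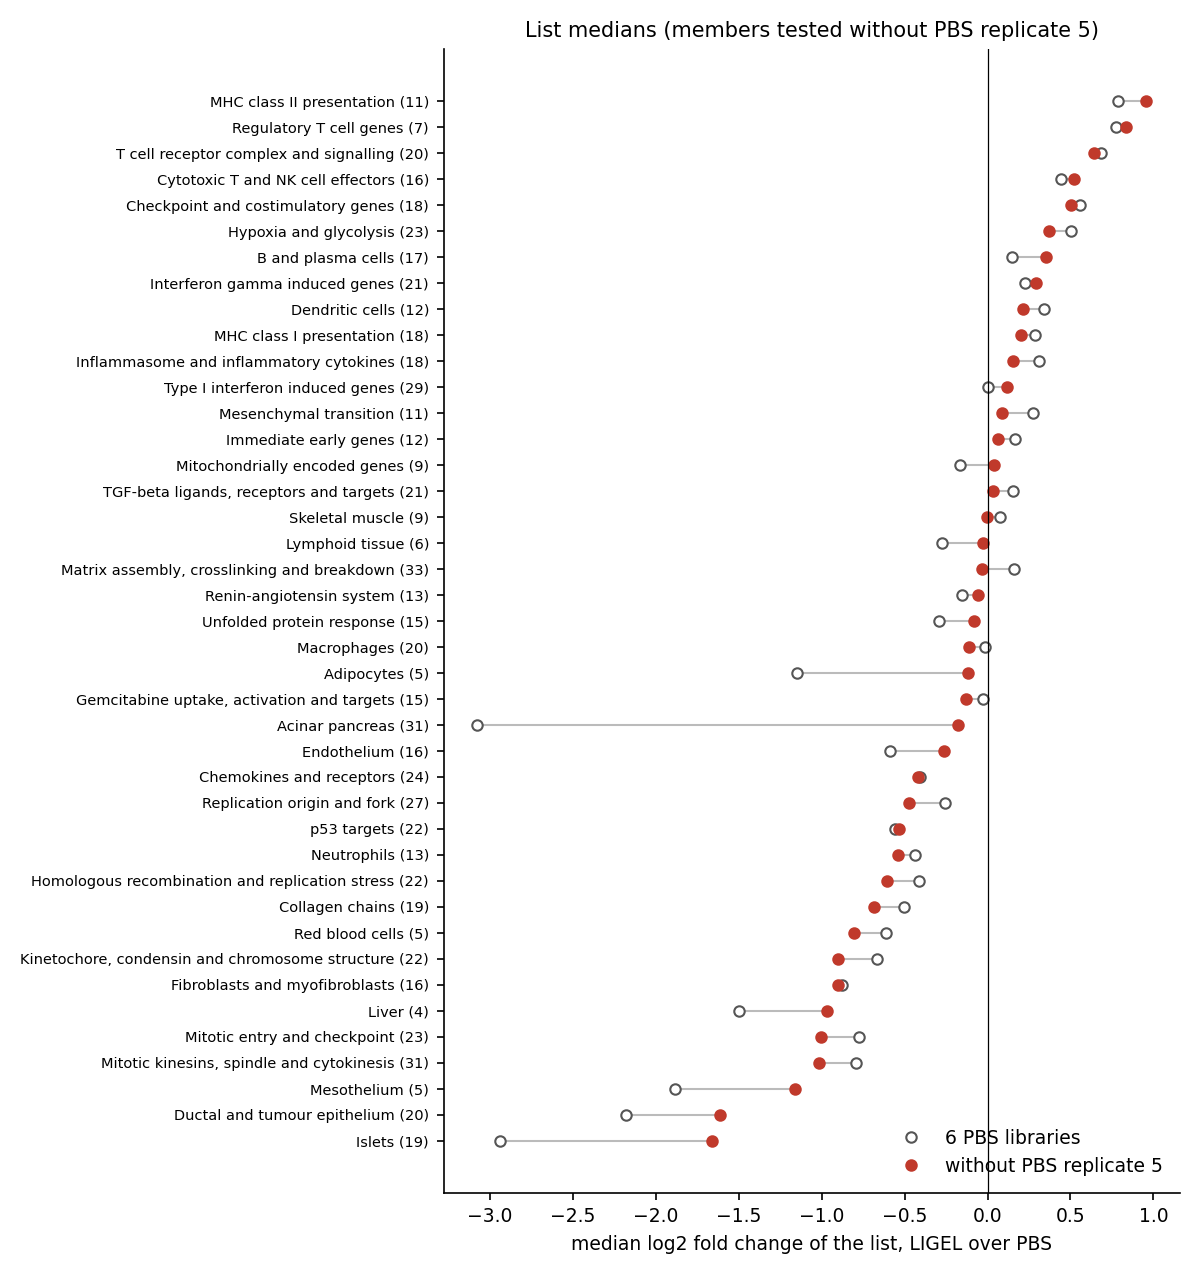
Median log2 fold change of LIGEL over PBS for each of the 41 gene lists, with 6 PBS libraries (open) and without PBS replicate 5 (red); the number of members tested is in parentheses. The acinar median moves from -3.08 to -0.18, the 3 mitotic lists lie between -0.90 and -1.02 without that library, and class II presentation is highest at 0.96.

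LIGEL was also set directly against the IGEL and GEM groups, since fold changes of the 3 groups over PBS share the PBS libraries. These contrasts came from the fit with all libraries, PBS replicate 5 included, in which all groups share the estimate of spread. No gene was called against either (edgeR, 19253 tested). Against IGEL 242 genes (1.26%) had an unadjusted p under 0.05, and against GEM 608 (3.16%). With only the 2 groups fitted, these counts were 487 of 17787 and 1418 of 17819, again with none called. DESeq2 and voom called none against IGEL and none against GEM. In the fit with all libraries the mitotic median was -0.15 against IGEL and -0.38 against GEM, and 71 and 75 of the 76 members were below 0. None of the 76 had an unadjusted p under 0.05 in either contrast of that fit. Against IGEL and GEM the log2 fold changes were -0.16 and -0.41 for Mki67, 0.24 and 0.41 for Perm1, and -0.09 and -0.22 for Aen. A p that misses the threshold does not show that the groups were alike.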

How the data were processed

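The authors deposited raw gene counts of total RNA for 24 libraries of mouse pancreatic tumour, 6 per group, with 54532 genes. The submitters' processing notes name HISAT2, featureCounts, Subread and the mm10 build. Versions and strand settings are not given in the sources used here, so reads of overlapping, antisense and near-identical genes may be split or merged. Samples were matched to count columns through their titles. Counts were scaled by the TMM method and filtered with filterByExpr (minimum count 10, minimum total 15), which left 19253 genes with all libraries and 19525 without PBS replicate 5. A quasi-likelihood test (edgeR 4.0.16 in R 4.3.3) was fitted over all 4 groups, with Benjamini-Hochberg adjustment over all genes and a threshold of 0.05. Fold changes are LIGEL over PBS on the log2 scale. Levels are counts per 1e6 counts (CPM) of the TMM-scaled totals, and list levels are means of log2 CPM with a prior count of 2. The method was tested on simulated data.

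Total counts per library ran from 27.1 to 40.5 M, and a floor of 3 counts covers counting error only. Named genes were the 10 higher and the 10 lower called genes with the largest change and a mean of at least 1 CPM, leaving out predicted genes (Gm and Rik names), pseudogenes and receptor segments, the 3 members of each list with the smallest p, and a fixed set. Brca1, Hmmr, Racgap1, Prc1, Kifc5b, Melk, Mybl2, Ccnf, Pttg1 and Plekhn1 fall outside that rule and were picked with their values in view. The members and gene lists were chosen with earlier results of these data known. Alternatives were DESeq2 1.42.0, limma 3.58.1 voom with sample quality weights, other scalings, no filter, covariates, and libraries left out.

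The labels name no pairing of the samples by replicate number. The level of 1 gene is not reported here.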

Additional observations from a re-analysis of the deposited data

Results flagged for a closer look

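A library was singled out where it lay far from the other 5 of its group, by Dixon's criterion. Chance gives about 1 such case in 20 groups, and 254 groups for genes and 82 for lists were examined, with 57 cases found, 19 of them in PBS replicate 5. No case was weighed for a cause.

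PBS replicate 5, in which acinar transcripts took 45.4% of counts, stood far from its group in CPM for Slc28a3 (41.6), Nt5c3 (36.9), Rrm1 (22), Phf1 (104), Plcd1 (27.8), Oas2 (705), Lnpep (167), Chac1 (71.4) and Cpa1 (36000). Its mean log2 CPM was apart in replication (3.25), mitotic entry (3.43), mitotic kinesins (3.20), kinetochore (3.58), homologous recombination (2.91), checkpoint and costimulatory genes (1.93), inflammasome (2.13), neutrophils (-1.13), mesenchymal transition (3.78) and immediate early genes (3.96).

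PBS replicate 1 was far above its group in CPM for Trp53inp1 (399), Akr1cl (5.92), Ano3 (4.24), Vnn1 (10.3), Lrrc15 (24.5), Cd5 (3.62), Lat (7.45), Cd28 (3.65), Cd3e (8.66), Cd8a (36.3), Tgfb2 (31.1), Itgb6 (13.8), Col14a1 (193), Col3a1 (10900), Krt7 (68.3) and Prrx1 (107). The same library was high in mean log2 CPM for p53 targets (5.96) and for the T cell receptor complex (3.09). It therefore held high levels of T cell, fibroblast and duct genes at once, although its acinar share was 6.83%.

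PBS replicate 3 stood apart for Prf1 at 30.6 CPM and PBS replicate 4 for Rasa4 at 60.8 CPM. PBS replicate 6 did so for Ighg2b (7.76 CPM), Il1b (29.7 CPM), S100a8 (9.26 CPM), S100a9 (15.3 CPM) and red blood cell genes (mean log2 CPM 3.37). Among LIGEL libraries, replicate 2 stood apart for Ighg2b at 23.1 CPM, and replicate 4 for Cxcl12 (21 CPM), Dcn (69.4 CPM), Col3a1 (4890 CPM), Cpa1 (4800 CPM) and the renin-angiotensin list (mean log2 CPM 2.79). LIGEL replicate 5 did so for Akr1cl (0.0266 CPM), Ccl3 (2.55 CPM), S100a8 (1.78 CPM), Itgb6 (4.01 CPM) and Krt7 (10.8 CPM). LIGEL replicate 6 was low for Cd3e (1.20 CPM) and for the T cell receptor list (mean log2 CPM 1.63).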

How the results depend on the processing

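With all libraries no gene was called at the main setting. DESeq2 called 1229 (207 higher, 1022 lower, 2 of them mitotic), voom 734 (194 and 540, 75 mitotic), the acinar covariate 3 (2 and 1), and leaving out PBS replicates 1 and 5 gave 521 (52 and 469, 70 mitotic). Leaving out 1 library at a time gave 0 to 173 genes, 0 to 27 higher, 0 to 146 lower and 0 to 60 mitotic. Without PBS replicate 5 the 173 genes (27 higher, 146 lower, 60 mitotic) became 114 (8 higher) with library totals only, 569 (122 and 447) with DESeq2, 790 (179 and 611) with voom, 89 (6 and 83) with only the 2 groups fitted, 284 (47 and 237) with the acinar covariate, 59 (7 and 52, 27 mitotic) with the A3 columns summed, 521 (52 and 469) without PBS replicate 1 as well, and 0 (0 higher, 0 lower, 0 mitotic) without the A1 to A3 columns, while no filter gave 15 higher. Leaving out 1 more library gave 15 to 521 genes, 1 to 52 higher, 14 to 469 lower and 6 to 70 mitotic. In those settings without PBS replicate 5 the mitotic median lay between -0.79 and -1.11, and the causes were not tested.

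A replicate block gave 236 genes without PBS replicate 5 (22 higher, 214 lower, 72 mitotic) and 0 with all libraries. Correlations of deviations between LIGEL and PBS libraries of the same number were -0.43, 0.16, 0.14, -0.24, 0.22 and 0.06. These values show no pairing by number, but so few libraries cannot exclude one.

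Signs turned, with all libraries as the base, in genes near 0 or spread widely. Mdm2 became 0.014 and Ace 0.11 with library totals only; Prf1 -0.073 and Ace 0.13 with voom; Cdkn1a 0.0013 with the replicate block; Dck 0.10, Prf1 -0.82 and Vegfa -0.31 without the A1 to A3 columns; Prf1 -0.37, Ace 0.085 and Vegfa -0.18 with the acinar covariate. Prf1 became -0.11 with the A3 columns summed. Without PBS replicates 1 and 5, Cda was -0.040, Prf1 -0.20, Ace 0.27 and Cpa1 0.63. Leaving out 1 library at a time gave -0.30 to 0.090 for Cdkn1a, -0.31 to 0.0027 for Dck, -0.16 to 0.15 for Ace and -0.14 to 1.07 for Prf1. For 35 of the called genes, 528 pairs of gene and setting kept their call without PBS replicate 5 and 273 lost it. Depth limits genes near 1 CPM.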
